A study of Homo sapiens with 9 samples.

Results

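The 9 genes described here encode RNA-binding proteins that set how long an mRNA lasts or how well it is translated: HDLBP, ELAVL1, KHSRP, HNRNPD, ZFP36, ZFP36L1, ZFP36L2, TIA1 and PUM2, out of 58174 genes listed. HDLBP was picked because its mRNA was among the most decreased upon IGF2BP1 depletion in these same libraries, and the 8 other genes were picked by what their proteins do. ES-2 is an established cell line from a human ovarian carcinoma. Ribosomal RNA was removed and total RNA was sequenced 72 h after the cells had received control siRNA (siC), siRNAs directed at the mRNA of IGF2BP1 (siIGF2BP1) or siRNAs directed at SRF (siSRF), with 3 libraries of each. The labels do not say whether the libraries of a condition came from separate cultures, so p-values measure the spread between these libraries, which may be technical. All values are FPKM, a read count divided by gene length and sequencing depth, and between 6421764 and 9416175 reads per library fell on genes. A lower value in a bulk library cannot tell fewer expressing cells from less RNA per cell.

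IGF2BP1 is an oncofetal RNA-binding protein with KH domains that shields many of its target mRNAs from decay, and SRF is a transcription factor that binds CArG boxes in promoters. The lifetime of an mRNA depends largely on proteins that read its 3′UTR. Proteins of the ELAVL family bind U-rich and AU-rich stretches and mostly stabilise the mRNA, whereas KHSRP and the ZFP36 family bind similar stretches and recruit the enzymes that remove the poly(A) tail and degrade the RNA. HNRNPD, also called AUF1, can act in either direction. TIA1 represses translation and helps to build stress granules, PUM2 binds Pumilio elements and recruits deadenylases, and HDLBP, also called vigilin, carries a long array of KH domains and binds mRNAs on the endoplasmic reticulum.

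The labels could be checked on the targeted genes. IGF2BP1 was at 12.8, 13.5 and 12.1 FPKM in siC, at 4.18, 4.14 and 4.02 FPKM in siIGF2BP1 and at 13.7, 14.6 and 14.4 FPKM in siSRF. SRF was at 13.6, 14.1 and 16.0 FPKM in siC, at 5.80, 5.42 and 6.80 FPKM in siIGF2BP1 and at 1.63, 1.36 and 1.42 FPKM in siSRF. Each targeted mRNA was thus low in the libraries labelled for it, and SRF was also lower in siIGF2BP1. Of 7 epithelial markers, KRT7 (median 128 FPKM over the 9 libraries), KRT18 (45.7 FPKM) and KRT8 (9.63 FPKM) were expressed, while EPCAM, CDH1 and KRT19 stayed at or below 0.259 FPKM and MUC16 was at 0. The summed level of these 7 genes averaged 153 FPKM in siC, against 207 FPKM in siIGF2BP1 and 219 FPKM in siSRF, and its part in the results below was not tested. Among ovarian and Müllerian markers, ARID1A was expressed (median 3.35 FPKM), whereas PAX8 and WT1 reached at most 0.262 and 0.198 FPKM. The mesenchymal markers VIM (means of 1055, 883 and 853 FPKM in siC, siIGF2BP1 and siSRF), CDH2 (25.4, 40.1 and 29.8 FPKM), ZEB1 (10.1, 10.2 and 12.0 FPKM) and FN1 (8.25, 4.70 and 3.15 FPKM) were all expressed. The leukocyte genes PTPRC and CD3E and the hepatocyte genes ALB and APOA1 were at 0 in every library. CD14 (mean 0.106 FPKM in siC, 0.539 in siIGF2BP1 and 0.0821 in siSRF) and SERPINA1 (0.111, 0.410 and 0.149 FPKM) of the same lists were detected, with AFP at or below 0.160 FPKM. Of 3 endothelial markers CDH5 was present (9.39, 15.2 and 7.93 FPKM), with PECAM1 at or below 0.387 FPKM and VWF at or below 0.0377 FPKM. The part of these markers in the results was not tested either.

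All 9 genes are spread over chromosomes 2, 4, 14 and 19, and their 3′UTRs differ in the elements that such factors read. HDLBP (ENSG00000115677) spans 241227264 to 241317061 of chromosome 2 on the minus strand (GENCODE, GRCh38), and its representative transcript has 28 exons and a 3′UTR of 2310 bases. This 3′UTR held no copy of the AU-rich pentamer ATTTA, which 92.0% of 2433 human 3′UTRs of like length hold at least once. It held 2 matches to the seed of the let-7 microRNAs, a family tied to IGF2BP1 and to the microRNA question of the study. A match of this kind was found in 12.8% of 3′UTRs of like length, and all searches were on the sense strand. The mature let-7a-5p (RefSeq) is shown with its seed in capitals, followed by the windows around both matches, with the bases that pair with the seed in capitals, at chr2:241228937-241228959 and chr2:241228680-241228702 on the minus strand.
let-7a-5p: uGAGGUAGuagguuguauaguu
HDLBP, site nearer the stop codon: ccctgcccCTACCTCcactgcca
HDLBP, site farther from the stop codon: ccttctttCTACCTCagccggcg

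ELAVL1, KHSRP and TIA1 had 1 let-7 seed match each, and the other members had none. The windows are at chr19:7959849-7959871, chr19:6414480-6414502 and chr2:70211396-70211418, all on the minus strand. Seed matches of the same kind were found in 25.0%, 12.0% and 16.2% of 3′UTRs of their respective lengths.
ELAVL1: ccccagacCTACCTCacctacta
KHSRP: cttccaacCTACCTCacaggggt
TIA1: ttaaaatcCTACCTCtttaaaca

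The AU-rich nonamer TTATTTATT, the preferred element of the ZFP36 proteins, which contains the pentamer, occurred once in ELAVL1 and once in each of the 3 ZFP36 genes. It occurred in none of the other 5 members. The pentamer occurred 13 times each in ELAVL1 and TIA1, 9 times in PUM2, 8 times in ZFP36L1, 5 times each in ZFP36 and ZFP36L2, 2 times in HNRNPD and once in KHSRP, and between 64.5% and 98.6% of 3′UTRs of their lengths hold it. Among 3′UTRs of like length the nonamer was found in 21.4% for ELAVL1, 5.4% for ZFP36, 9.3% for ZFP36L1 and 8.9% for ZFP36L2. The windows, with the nonamer in capitals, are at chr19:7961830-7961854 (minus), chr19:39409198-39409222 (plus), chr14:68788079-68788103 (minus) and chr2:43223450-43223474 (minus).
ELAVL1: ttatgtatTTATTTATTgaagtgtg
ZFP36: tgacgactTTATTTATTctaatatg
ZFP36L1: ctgttggaTTATTTATTttagaaat
ZFP36L2: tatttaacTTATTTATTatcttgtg

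PUM2 was the member whose 3′UTR held the Pumilio element TGTANATA, with 2 copies, where 41.9% of 3′UTRs of like length hold at least 1. They are at chr2:20251145-20251168 and chr2:20250885-20250908 on the minus strand and are shown with the element in capitals. The seed match of miR-23a-3p, AATGTGA, was found once each in KHSRP, TIA1 and PUM2 (21.9%, 34.9% and 32.3% of 3′UTRs of like length), and that of miR-125a-5p, CTCAGGG, in no member (between 9.3% and 30.0% of 3′UTRs of like length). In the promoters (RefSeq, 250 bases before to 50 after a start, 7 of 9 members matched, both strands), a CArG box was found for HNRNPD, against 1.29% of 35116 promoters. It begins 5 bases after the start, within chr4:82373942-82374241 on the minus strand. A match describes the letters of a window and does not show that it is bound.
PUM2, first element: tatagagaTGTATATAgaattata
PUM2, second element: agaaatatTGTATATActtacata
HNRNPD, CArG box in capitals: tccgtcggCCATTTTAGGtggtccgc

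In siC, the order of the levels was KHSRP (78.8 FPKM), HDLBP (69.0 FPKM), PUM2 (29.1 FPKM), ELAVL1 (17.2 FPKM), TIA1 (12.7 FPKM), HNRNPD (10.4 FPKM), ZFP36L1 (8.47 FPKM), ZFP36L2 (6.38 FPKM) and ZFP36 (0.433 FPKM). The ranges of TIA1 and HNRNPD overlapped, as did those of HNRNPD and ZFP36L1, whereas the other neighbours were separated in all siC libraries. HDLBP stood at rank 507 and KHSRP at rank 425 among 19799 protein-coding genes. ZFP36, which encodes tristetraprolin, rested on 6, 5 and 7 reads in the siC libraries, so that its fold changes are poorly determined at this depth.

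**Figure D1:**
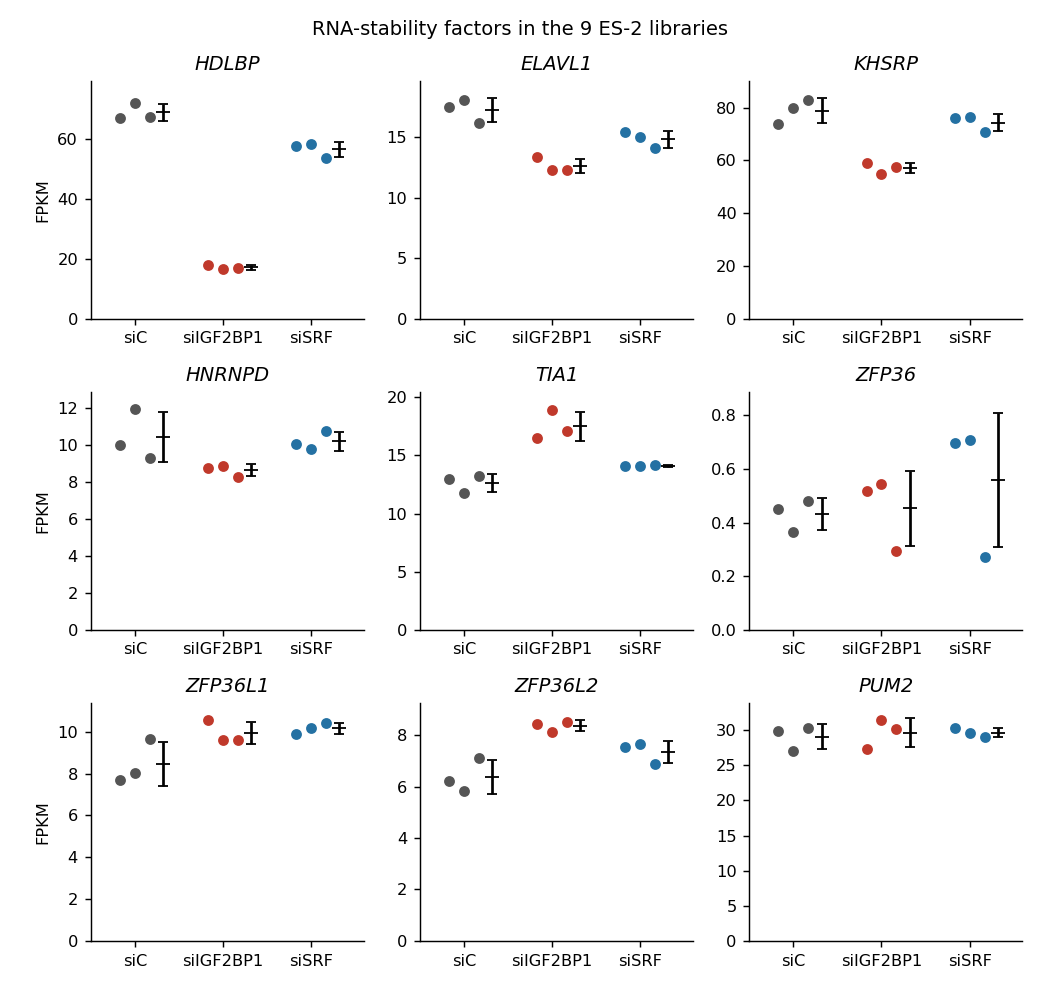
FPKM of the 9 genes in each library (points) by siRNA, with the mean and SD of 3 libraries as black bars, all vertical axes starting at 0. The siIGF2BP1 libraries of HDLBP sit between 16.6 and 18.0 FPKM, far below the siC libraries between 67.2 and 72.2 FPKM, while the points of PUM2 and ZFP36 overlap across conditions.

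HDLBP was at 67.2, 72.2 and 67.6 FPKM in siC, at 18.0, 16.6 and 16.9 FPKM in siIGF2BP1 and at 57.6, 58.6 and 53.7 FPKM in siSRF. All siIGF2BP1 libraries were far below the rest, and the siSRF libraries lay between them and siC, without overlap. The siC mean was 69.0 FPKM ± 2.80 (SD, n = 3). The siIGF2BP1 mean of 17.2 FPKM ± 0.749 (SD, n = 3) was 24.9% of it, which is -2.00 on the log2 scale. Because this value chose the gene, it is given as a description and its p is not used. It stood at rank 11 from the largest decrease among 10328 protein-coding genes of at least 1 FPKM in siC.

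The genes ranked just above HDLBP were KRTAP2.3 (log2 fold change -2.45), RAB38 (-2.33) and SERPINB2 (-2.28), and those just below were GPR3 (-2.00), ANGPT2 (-1.96) and MMP1 (-1.94). They encode a keratin-associated protein, a small GTPase, a serpin, a receptor, an angiopoietin and a collagenase. HDLBP was measured on 5404, 5978 and 5952 reads in siC and on 1681, 1471 and 1747 reads in siIGF2BP1, which leaves little counting error.

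The first bases of HDLBP overlap SEPTIN2 (listed as SEPT2), which lies on the opposite strand over 1962 bases. In siC, SEPT2 was at 52.1, 48.1 and 56.4 FPKM, against 77.6, 85.1 and 85.2 FPKM in siIGF2BP1, with 69.2, 65.6 and 62.2 FPKM in siSRF. It was thus higher in the libraries in which HDLBP was lower. The library kit marks the strand, but the strand setting of the counting is not given in the sources used here, and reads of the shared bases cannot be told apart without it.

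**Figure D2:**
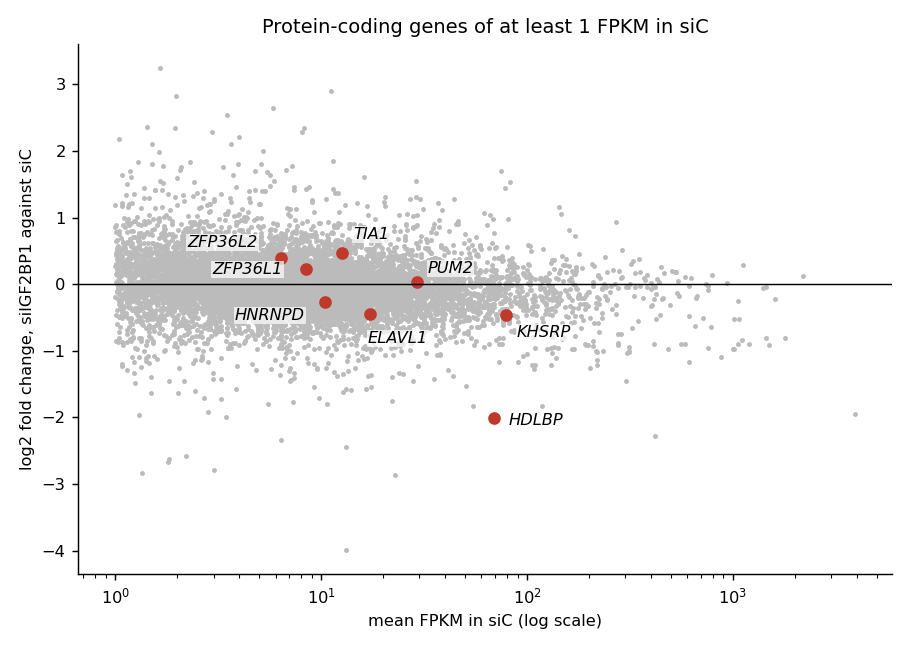
Log2 fold change in siIGF2BP1 against siC (vertical axis) over the mean FPKM in siC (log axis) for each of 10328 protein-coding genes of at least 1 FPKM in siC (grey) and the 8 members above that level (red, ZFP36 is below it). HDLBP sits at -2.00 at the lower edge of the cloud, and the other members lie between -0.46 and 0.47.

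The question for the other 8 genes was whether further stability factors changed when IGF2BP1 was depleted. ELAVL1 and KHSRP fell and TIA1 rose, each by much less than HDLBP. By limma-trend on log2(FPKM + 0.1), with p adjusted over 22292 genes by Benjamini-Hochberg and a threshold of 0.01, 2 of these 8 genes were called lower and 1 higher, and 5 were not called. Over all genes tested, 3.57% were called lower and 3.55% higher, and over 10419 protein-coding genes of at least 1 FPKM 7.07% were called lower and 6.49% higher. The median log2 fold change was 0.03 over these 8 genes, 0.02 over all genes tested and -0.02 over protein-coding genes of at least 1 FPKM.

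ELAVL1 (ENSG00000066044), which encodes the stabilising factor HuR, was at 17.5, 18.1 and 16.2 FPKM in siC and at 13.3, 12.3 and 12.3 FPKM in siIGF2BP1. All siIGF2BP1 libraries were below all siC libraries. ELAVL1 fell by 0.45 on the log2 scale (95% confidence interval -0.60 to -0.29, limma adjusted p = 0.00667), which left 73.2% of the siC level. Leaving out any 1 of the 6 libraries kept the fold change between -0.49 and -0.41 but raised the adjusted p to between 0.0126 and 0.0341, whereas limma-voom on the recovered reads gave 1.54e-05 and the 15 alternatives ranged from that value to 0.0341. Of its family, the neuronal ELAVL3 and ELAVL4 had 1 read at most in any library, and ELAVL2 was at 0.712 FPKM in siC and 1.01 FPKM in siIGF2BP1 and was not called.

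KHSRP, whose protein binds AU-rich elements through KH domains and promotes decay and microRNA maturation, was at 73.7, 80.0 and 82.8 FPKM in siC and at 58.9, 54.9 and 57.6 FPKM in siIGF2BP1. The groups did not overlap. KHSRP fell by 0.46 on the log2 scale (95% confidence interval -0.60 to -0.33, limma adjusted p = 0.00382), to 72.5% of the siC level. The adjusted p ranged from 0.00689 to 0.0221 with 1 library left out and was at most 0.01 there only without siC replicate 1, and over all 15 alternatives it ranged from 1.15e-07 to 0.0307.

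TIA1 was at 13.0, 11.8 and 13.2 FPKM in siC and at 16.5, 18.9 and 17.1 FPKM in siIGF2BP1. Every siIGF2BP1 library was above every siC library. TIA1 rose by 0.47 on the log2 scale (95% confidence interval 0.29 to 0.65, limma adjusted p = 0.00946), to 138% of the siC level. The call is close to the threshold, since the adjusted p was 0.0114 without a filter on low values and between 0.0224 and 0.0382 with any 1 library left out, in a range of 1.45e-05 to 0.0566 over 15 alternatives. C2orf42, which GENCODE places on the same strand over 39172 bases of TIA1, was at 2.79 FPKM in siC and 2.84 FPKM in siIGF2BP1. How reads of any shared exons were counted is not given in the sources used here.

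For the ZFP36 family, which promotes decay, none of the 3 members was called by limma-trend, while 1 was higher at an unadjusted p under 0.05 and limma-voom called 1 higher, as were 21.3% and 14.7% of protein-coding genes of at least 1 FPKM. That gene was ZFP36L2, with 6.23, 5.81 and 7.11 FPKM in siC and 8.43, 8.12 and 8.53 FPKM in siIGF2BP1. Its libraries did not overlap, and its log2 fold change of 0.39 had a limma-trend adjusted p of 0.0315 and 0.00804 with limma-voom, over 15 alternatives between that value and 0.106. ZFP36L1 was between 7.72 and 9.67 FPKM in siC and between 9.62 and 10.6 FPKM in siIGF2BP1, a difference of 0.23 on the log2 scale (95% confidence interval -0.01 to 0.48). For ZFP36 the siC mean was 0.433 FPKM ± 0.0600 (SD, n = 3) and the siIGF2BP1 mean 0.453 FPKM ± 0.138 (SD, n = 3), and an interval of -0.78 to 0.83 on the log2 scale shows that no change of moderate size could be detected.

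HNRNPD was at 10.0, 11.9 and 9.31 FPKM in siC and at 8.72, 8.88 and 8.25 FPKM in siIGF2BP1. The groups were separate, but the siC libraries were spread widely, and the log2 fold change of -0.26 had a limma adjusted p of 0.142 (95% confidence interval -0.51 to -0.02) and became -0.16 without siC replicate 2. For PUM2 the siC mean was 29.1 FPKM ± 1.83 (SD, n = 3) and the siIGF2BP1 mean 29.6 FPKM ± 2.04 (SD, n = 3). Its log2 fold change of 0.03, with an interval from -0.15 to 0.20, turned to -0.055 once trends along GC content and gene length were removed. For single genes, a two-sided exact permutation test of 3 libraries against 3 cannot go below p = 0.1, and this value was reached by ELAVL1, KHSRP, TIA1, ZFP36L2 and HNRNPD. The share of all genes that reach it was not computed. By limma-trend at an unadjusted p under 0.05, 3 of these 8 genes were lower and 2 higher. Of protein-coding genes of at least 1 FPKM, 25.3% were lower and 21.3% higher at that level, so such differences were common.

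**Figure D3:**
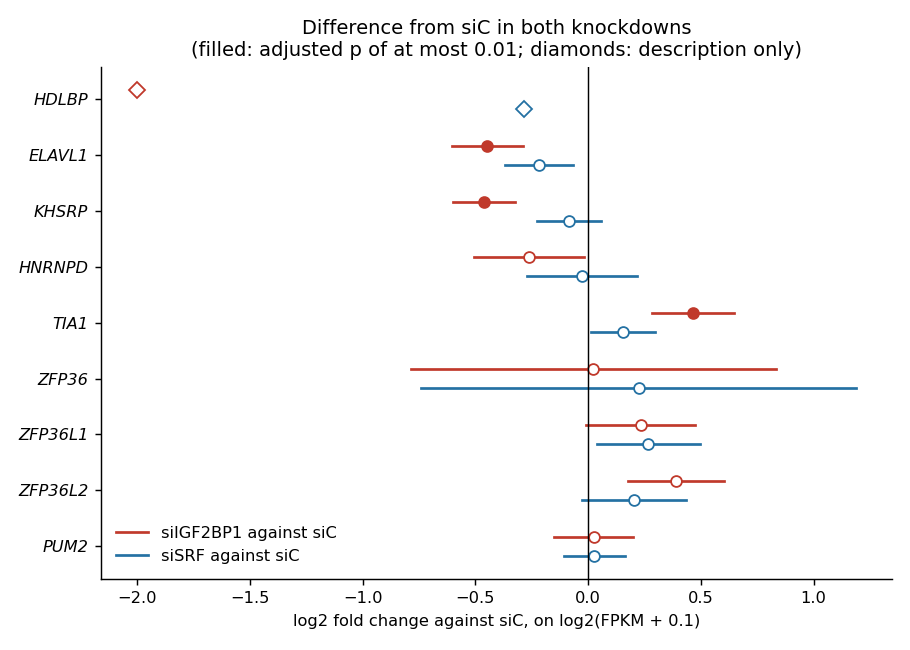
Log2 fold changes against siC (horizontal axis, on log2(FPKM + 0.1)) in siIGF2BP1 (red) and siSRF (blue) for each gene, with 95% confidence intervals from limma-trend as lines except for HDLBP. Filled points mark ELAVL1, KHSRP and TIA1, called in siIGF2BP1 at an adjusted p of at most 0.01, and the diamonds at -2.00 and -0.28 mark HDLBP, given as a description.

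The siSRF libraries show whether the same factors changed when this transcription factor was depleted. They were compared with the same siC libraries, so both sets of values share their controls. Of the 8 genes other than HDLBP, 0 were called by limma-trend or limma-voom and 3 had an unadjusted p under 0.05. Over all 21857 genes tested, 5.34% were called lower and 6.85% higher, and over 10284 protein-coding genes of at least 1 FPKM 10.2% were lower and 13.3% higher. At an unadjusted p under 0.05, 25.2% of the latter were lower and 31.8% higher, and limma-voom called 19.2% lower and 24.5% higher, so that 3 of 8 is no more than the share over all of them.

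HDLBP was at 56.6 FPKM ± 2.56 (SD, n = 3) in siSRF, 82.1% of siC or -0.28 on the log2 scale, with no overlap between libraries. The siC libraries took part in the choice of the gene, so this value is also a description and its p is not used. Over 15 alternatives it ranged from -0.32 to -0.14, the latter without the trends along GC content and length, and the siIGF2BP1 value ranged from -2.04 to -1.95.

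Among the other members, ELAVL1 was at 15.4, 15.0 and 14.1 FPKM in siSRF, a log2 fold change of -0.22 (limma adjusted p = 0.0524). TIA1 was at 14.1, 14.0 and 14.1 FPKM in siSRF, and its log2 fold change of 0.16 (limma adjusted p = 0.113) turned to -0.093 after removal of the GC and length trends. KHSRP was between 70.7 and 76.5 FPKM, with a log2 fold change of -0.08 that turned to 0.11 after the same removal.

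ZFP36L1 (0.27), ZFP36L2 (0.20) and ZFP36 (0.22) had positive log2 fold changes in siSRF, with limma adjusted p of 0.0951, 0.186 and 0.742, and none was called. The value of ZFP36 ranged from 0.033 to 0.60 with 1 library left out. HNRNPD was at 10.0, 9.77 and 10.7 FPKM in siSRF, within the range of its siC libraries (log2 fold change -0.03), and PUM2 differed by 0.03, a value that became -0.0078 after median-ratio rescaling and -0.14 (limma adjusted p = 0.0353) without the GC and length trends.

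The libraries of the knockdowns were also compared directly, which tests whether a gene differs between them. HDLBP was at 30.3% of its siSRF level in siIGF2BP1 (log2 fold change -1.72, a description, because the siIGF2BP1 libraries chose the gene). Of the other 8 genes, 1 was called lower and 1 higher in siIGF2BP1 than in siSRF, while over all 22311 genes tested 11.2% were called lower and 8.82% higher, and over 10371 protein-coding genes of at least 1 FPKM 21.8% and 15.6%. KHSRP was lower in siIGF2BP1, with a difference of -0.38 on the log2 scale (95% confidence interval -0.49 to -0.27, limma adjusted p = 0.00143). This call was lost with the replicate number as a block (limma adjusted p = 0.0138). TIA1 was higher by 0.31 on the log2 scale (95% confidence interval 0.17 to 0.45, limma adjusted p = 0.00870), a call lost with any 1 library left out (adjusted p 0.0109 to 0.0347) or without a filter on low values (0.0107).

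ELAVL1 (-0.23, limma adjusted p = 0.0252) and HNRNPD (-0.24, limma adjusted p = 0.0249) missed the threshold in this comparison. A difference of either gene between the knockdowns was therefore not established by limma-trend, although the libraries of each did not overlap. Limma-voom gave adjusted p of 0.00432 and 0.00876, and the ranges over 15 alternatives were 0.00432 to 0.0828 and 0.00876 to 0.0963. The remaining members were not called either, with ZFP36L2 at 0.18, ZFP36L1 at -0.03, ZFP36 at -0.20 and PUM2 at 0.00 on the log2 scale.

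To place the members among related factors, 11 lists of RNA-binding proteins, decay enzymes and mRNAs with AU-rich elements were used, with HDLBP and IGF2BP1 left out. Of 186 listed genes, 173 were tested in siIGF2BP1 against siC, and 21 were called lower (12.1%) and 7 higher (4.05%), against 3.57% and 3.55% of all genes tested and 7.07% and 6.49% of protein-coding genes of at least 1 FPKM. The median log2 fold change was -0.09 over the listed genes, 0.02 over all genes tested and -0.02 over protein-coding genes of at least 1 FPKM. In siSRF against siC, 10 of 172 were called lower (5.81%) and 32 higher (18.6%), against 10.2% and 13.3% of protein-coding genes of at least 1 FPKM. The median there was 0.11, against 0.01 over all genes tested and 0.04 over protein-coding genes of at least 1 FPKM. Calls rest on all libraries in the fit. With any 1 library left out, 5 to 10 listed genes were called lower and 2 or 3 higher in siIGF2BP1 against siC, and 3 to 5 lower and 12 to 26 higher in siSRF against siC. Counts over all genes tested fell as well. In siIGF2BP1 they went from 796 to between 224 and 329 lower and from 792 to between 212 and 420 higher. In siSRF they went from 1167 to between 482 and 673 lower and from 1498 to between 464 and 1123 higher.

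**Figure D4:**
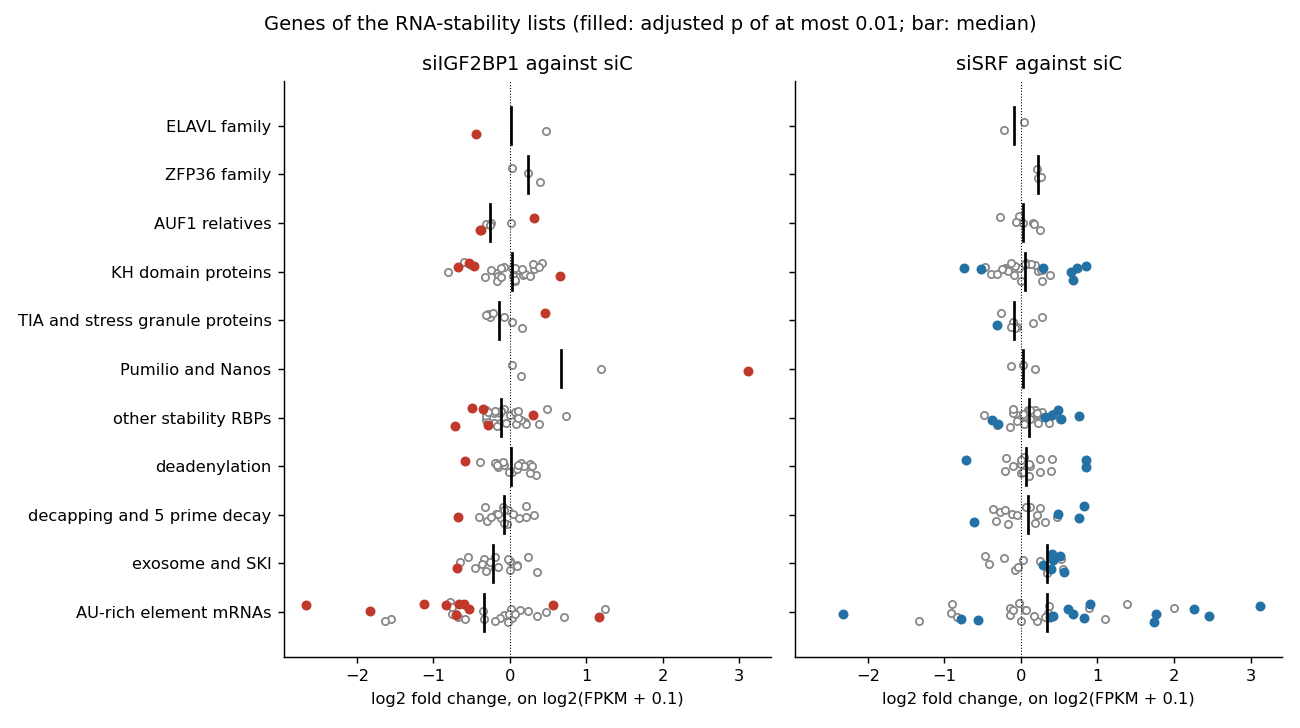
Log2 fold change against siC (horizontal axis) of each tested gene of the 11 lists in siIGF2BP1 (left) and siSRF (right), with genes at an adjusted p of at most 0.01 filled and the median of each list as a bar. Of 34 mRNAs with AU-rich elements, 8 were called lower and 2 higher in siIGF2BP1, and 3 lower and 11 higher in siSRF. Of protein-coding genes of at least 1 FPKM, 7.07% were called lower and 6.49% higher in siIGF2BP1, and 10.2% and 13.3% in siSRF.

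Among the relatives of AUF1, 2 of 7 were called lower (28.6%) and 1 higher (14.3%) upon IGF2BP1 depletion, against 7.07% and 6.49% of protein-coding genes of at least 1 FPKM. HNRNPA2B1, an abundant hnRNP of the nucleus, fell from 78.1 to 59.5 FPKM (log2 fold change -0.39, limma adjusted p = 0.00125). HNRNPAB, which shares its RNA-binding domains with HNRNPD, fell from 258 to 199 FPKM (-0.38, limma adjusted p = 0.00421), and HNRNPA3 rose from 26.0 to 32.2 FPKM (0.31, limma adjusted p = 0.00919). In siSRF none of the 7 was called by limma-trend, with 1 lower and 3 higher both at an unadjusted p under 0.05 (25.2% and 31.8% of protein-coding genes of at least 1 FPKM) and by limma-voom (19.2% and 24.5%).

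Of the KH domain proteins, the class to which HDLBP, KHSRP and IGF2BP1 belong, 3 of 29 were called lower (10.3%) and 1 higher (3.45%) in siIGF2BP1, near the 7.07% and 6.49% of protein-coding genes of at least 1 FPKM, with a median log2 fold change of 0.03. PCBP1, a poly(C)-binding protein whose gene has no introns and resembles PCBP2, fell from 188 to 130 FPKM (-0.53, limma adjusted p = 0.00331). PNO1, a ribosome assembly factor, fell from 16.9 to 10.6 FPKM (-0.67, limma adjusted p = 0.00664), and BICC1, a translational repressor, rose from 4.85 to 7.74 FPKM (0.66, limma adjusted p = 0.00960). The fourth called gene was KHSRP.

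In siSRF, 2 of these 29 genes were called lower (6.9%) and 5 higher (17.2%), near the 10.2% and 13.3% of protein-coding genes of at least 1 FPKM. BICC1 was lower there, at 2.87 FPKM (-0.74, limma adjusted p = 0.00315), and PCBP1 was lower at 132 FPKM (-0.52, limma adjusted p = 0.00637). IGF2BP2, the paralog of IGF2BP1, rose from 28.4 to 47.3 FPKM (0.73, limma adjusted p = 4.58e-04), the ribosome assembly factor KRR1 rose from 8.89 to 14.0 FPKM (0.65, limma adjusted p = 0.00116) and PNO1 rose to 27.0 FPKM (0.68, limma adjusted p = 0.00175). BICC1 and PNO1 thus lay on opposite sides of siC in the knockdowns, and each differed between them in the direct comparison (1.40 and -1.35 on the log2 scale, limma adjusted p = 3.36e-04 and 2.11e-04).

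In the group of TIA and stress granule proteins, TIA1 was the 1 gene of 8 called by limma-trend in siIGF2BP1 (12.5% higher, against 6.49% of protein-coding genes of at least 1 FPKM), while limma-voom called 2 lower and 1 higher (16.5% and 14.7% of these), and the median log2 fold change was -0.15. In siSRF, G3BP2, a stress granule scaffold, fell from 22.9 to 18.4 FPKM (-0.31, limma adjusted p = 0.00474) and the other 7 were not called by limma-trend, where 10.2% of protein-coding genes of at least 1 FPKM were called lower, while limma-voom called 2 of the 8 lower and 1 higher (19.2% and 24.5% of these). Of the Pumilio and Nanos genes, NANOS1, whose protein works with Pumilio proteins in germ cells, rose upon IGF2BP1 depletion from 0.202 to 2.34 FPKM (3.11, limma adjusted p = 0.00408). NANOS1 was the 1 gene of 4 tested in this list that was called higher (25%), with 0 lower. Of protein-coding genes of at least 1 FPKM, 6.49% were called higher and 7.07% lower. NANOS1 rested on few reads in siC. It was counted with 5, 2 and 10 reads in siC, 60, 74 and 87 reads in siIGF2BP1 and 5, 7 and 9 reads in siSRF.

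A further 32 RNA-binding proteins with roles in stability were tested in siIGF2BP1, of which 4 were called lower (12.5%) and 1 higher (3.12%), against 7.07% and 6.49% of protein-coding genes of at least 1 FPKM. SAMD4B, a Smaug homolog that directs mRNAs to deadenylation, fell from 9.40 to 5.66 FPKM (-0.72, limma adjusted p = 9.70e-04). Nucleolin (NCL) fell from 168 to 131 FPKM (-0.36, limma adjusted p = 0.00257) and SYNCRIP, also called hnRNP Q, fell from 39.9 to 32.8 FPKM (-0.28, limma adjusted p = 0.00474). In siSRF, 2 of 32 were called lower (6.25%) and 5 higher (15.6%), near the 10.2% and 13.3% of protein-coding genes of at least 1 FPKM, among them SAMD4B (-0.38) on the lower side and YBX1 (0.53), SERBP1 (0.41) and SYNCRIP (0.31) on the higher side.

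Each of 3 lists of the decay machinery that these factors recruit held 1 gene called lower of 18 (5.56%) upon IGF2BP1 depletion, near the 7.07% of protein-coding genes of at least 1 FPKM. Of 18 deadenylation genes, TOB2, an adaptor of the CCR4-NOT complex, was called lower, falling from 6.40 to 4.25 FPKM (-0.58, limma adjusted p = 0.00664). Of 18 decapping and 5′ decay genes, EDC3, an enhancer of decapping, fell from 7.03 to 4.37 FPKM (-0.67, limma adjusted p = 0.00469). Of 18 exosome and SKI genes, EXOSC4, a subunit of the exosome ring, fell from 32.2 to 19.9 FPKM (-0.69, limma adjusted p = 0.00329). Limma-trend called 0 genes of these 3 lists higher. At an unadjusted p under 0.05, 1, 4 and 8 genes were lower and 3, 1 and 2 higher, against 25.3% and 21.3% of protein-coding genes of at least 1 FPKM, and limma-voom called 1, 2 and 6 lower and 1 higher in each list, against 16.5% and 14.7%.

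In siSRF, 10.2% of protein-coding genes of at least 1 FPKM were called lower and 13.3% higher. Of the deadenylation list, CNOT7 (8.26 to 14.9 FPKM, log2 fold change 0.85) and NOCT (0.85) rose there and PAN2 (-0.72) fell. Of the decapping list, 3 genes rose, the LSM ring subunits LSM3 (13.2 to 23.2 FPKM, 0.82) and LSM1 (0.75) and the decapping cofactor DCP1A (0.49), and LSM14B (-0.61) fell. Of the exosome and SKI list, 6 of 18 rose and 0 fell by limma-trend, with 3 lower and 12 higher at an unadjusted p under 0.05 (25.2% and 31.8% of protein-coding genes of at least 1 FPKM) and 2 lower and 11 higher by limma-voom (19.2% and 24.5%). The 3 with the smallest p were the helicase SKIV2L2 (22.7 to 33.5 FPKM, 0.56), EXOSC7 (0.40) and HBS1L (0.50). The median log2 fold change of this list was 0.34 in siSRF and -0.23 in siIGF2BP1. Over all genes tested it was 0.01 and 0.02, and over protein-coding genes of at least 1 FPKM 0.04 and -0.02. In the direct comparison, 9 of 18 were called lower in siIGF2BP1 than in siSRF, against 21.8% of protein-coding genes of at least 1 FPKM.

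The mRNAs with AU-rich elements are the classical targets of ELAVL1, KHSRP, HNRNPD and the ZFP36 family. Upon IGF2BP1 depletion, 8 of 34 were called lower (23.5%) and 2 higher (5.88%), against 7.07% and 6.49% of protein-coding genes of at least 1 FPKM. Their median log2 fold change was -0.34, against 0.02 over all genes tested and -0.02 over protein-coding genes of at least 1 FPKM. The chemokine CXCL8 fell from 54.6 to 15.3 FPKM (-1.82, limma adjusted p = 1.80e-04), the urokinase receptor PLAUR from 24.1 to 13.5 FPKM (-0.84, limma adjusted p = 3.57e-04) and the transferrin receptor TFRC, whose mRNA is better known for iron-responsive elements, from 71.7 to 49.3 FPKM (-0.54, limma adjusted p = 7.59e-04). Among the higher ones, HIF1A rose from 38.2 to 56.4 FPKM (0.56, limma adjusted p = 7.13e-04).

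Upon SRF depletion, 3 of 34 of these mRNAs were called lower (8.82%) and 11 higher (32.4%), against 10.2% and 13.3% of protein-coding genes of at least 1 FPKM. The list had a median log2 fold change of 0.33, against 0.01 over all genes tested and 0.04 over protein-coding genes of at least 1 FPKM. The cyclin CCNB1 (-0.57), the growth factor VEGFA (-0.78) and the cytokine IL1A (-2.32) were lower. DUSP1, a phosphatase that acts on MAP kinases, rose from 10.0 to 48.5 FPKM (2.27), and the cytokine IL11 rose from 0.798 to 7.81 FPKM (3.13). In the direct comparison, 17 of 35 of these mRNAs were called lower in siIGF2BP1 than in siSRF (48.6%) and 2 higher (5.71%), against 21.8% and 15.6% of protein-coding genes of at least 1 FPKM.

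Finally, the genes whose levels over the 9 libraries ran most like those of the members were sought among 10380 protein-coding genes, by the root mean square difference of the mean-centred log2(FPKM + 0.1) values. Closest to HDLBP were MMP1 (0.09), SERPINB2 (0.17), GPR3 (0.18), VPS37B (0.20) and DUSP5 (0.20). MMP1, SERPINB2 and GPR3 were also its neighbours in the ranking by fold change. Both orders use the same siIGF2BP1 and siC values, so this sharing is not a separate result. In siC MMP1 was at 3941 FPKM, with 1024 FPKM in siIGF2BP1 against 3406 FPKM in siSRF. Closest to ELAVL1 were KPNA2, GLUD2 and PHRF1, each at 0.05, of which KPNA2, an importin, was at 88.4, 63.2 and 72.1 FPKM in siC, siIGF2BP1 and siSRF. GLUD2 is a near-identical copy of GLUD1, so its reads are uncertain. The 9 libraries fall into 3 conditions, so that such likeness rests mainly on 3 group means.

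**Figure D5:**
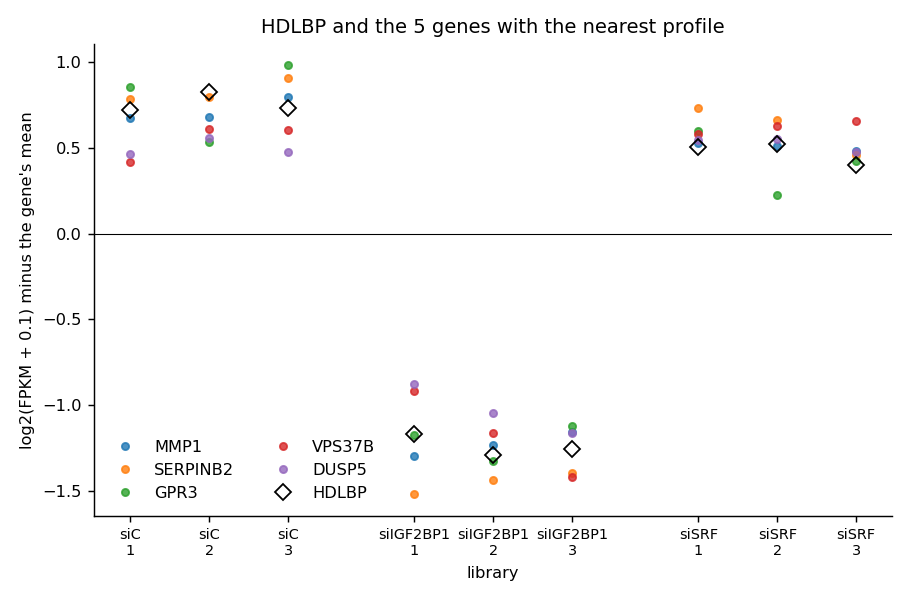
Log2(FPKM + 0.1) of HDLBP (black diamonds) and its 5 nearest genes (coloured points) in each of the 9 libraries, after subtraction of the mean of each gene. All 6 genes are below their mean in the siIGF2BP1 libraries and above it in the siC and siSRF libraries.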

How the data were processed

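The libraries were made from total RNA of ES-2 cells with a directional NEBNext kit. Per the labels and the methods, the authors clipped reads with cutadapt 1.14, aligned them with HISAT2 2.1.0 to GRCh38 (hg38), used SAMtools 1.5, counted reads on Ensembl genes with featureCounts 1.5.3 and scaled them with edgeR 3.18.1 (TMM). The authors deposited FPKM values in 2 tables, with gene length and their own fold changes, p-values and FDR, which were not used. FPKM times length gave whole reads for 100% of the values (tolerance 0.0001 reads), 6421764, 6739061 and 7253729 for siC, 7567730, 7033869 and 8419467 for siIGF2BP1 and 7377934, 9416175 and 7542197 for siSRF. Both tables hold the same siC values, and the TMM factors of the 9 libraries multiply to 1, so all share a scale.

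Groups and replicate numbers came from the labels. Genes averaging 0.1 FPKM or more in the 6 libraries compared, all 9 members among them, were tested with limma-trend (limma 3.58.1, R 4.3.3) on log2(FPKM + 0.1), which understates changes of low genes, with adjustment by Benjamini-Hochberg over all genes tested and calls at 0.01. HDLBP was part of each fit, but its p-values are not used and it is in no count of members called. Its test in siSRF against siC was planned and was set aside after its values were seen, because the siC libraries also chose the gene. The fit was tested on simulated data, where wrong calls of limma-trend fell mostly on genes of under 2 reads a library, which made up 49 of 1588 calls in siIGF2BP1, 62 of 2665 in siSRF and 85 of 4460 between the knockdowns. The members and lists were chosen with earlier results of these data known. Genes named are the members, IGF2BP1 and SRF, at most 3 called genes of each list and direction by smallest p, the 5 and 3 genes with profiles nearest to HDLBP and ELAVL1, and 3 neighbours on either side of HDLBP by fold change. Beyond these, marker genes, SEPT2, C2orf42 and the other ELAVL genes were given as checks, the last 3 kinds after their values were seen. Alternatives were pseudocounts of 1 and 0.01, no filter, a mean of at least 1 FPKM, median-ratio rescaling, limma-voom on the recovered reads, all 9 libraries in one fit, a replicate block, a threshold of 0.05, leaving out each replicate and, chosen after seeing the data, removal of cubic trends along GC content and gene length (GC known for 98.9% of genes). Positions and 3′UTRs are from GENCODE on GRCh38, promoters and microRNAs from RefSeq. Protein sequences were not used here.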

Additional observations from a re-analysis of the deposited data

How the results depend on the processing

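The 411 recomputed values of single members were log2 fold changes and, under rescaling, the siC level of each member. In 356, the fold change kept its direction and, HDLBP aside, its side of the threshold, or the level moved by less than its SD. Of the rest, 30 called values missed the threshold, 3 uncalled values passed it and 20 turned sign. The last 2, values of HDLBP given as a description, moved by more than the replicate spread. Depth limits ZFP36 (4 to 13 reads per library), and the cause of the changes below was not tested.

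Counts are given as lower and higher. In siIGF2BP1 against siC, all genes called were 796 and 792, and 1891 and 1914 with limma-voom, 1836 and 1760 at 0.05, 1309 lower with all 9 libraries, and 224 to 329 and 212 to 420 with 1 library left out. Member genes were 2 and 1, with 0 higher without a filter, 2 higher with limma-voom or at 0.05, and 0 to 1 and 0 with 1 library left out. List genes were 21 and 7, and 44 and 14 with limma-voom, 38 and 12 at 0.05, 33 lower with all 9 libraries, 4 higher without a filter, and 5 to 10 and 2 to 3 with 1 library left out.

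In siSRF against siC, all genes were 1167 and 1498, and 2343 and 2780 with limma-voom, 2306 and 2899 at 0.05, and 482 to 673 and 464 to 1123 with 1 library left out. Member genes were 0 and 0 with every alternative. List genes were 10 and 32, and 20 and 54 with limma-voom, 18 and 54 at 0.05, and 3 to 5 and 12 to 26 with 1 library left out.

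In siIGF2BP1 against siSRF, all genes were 2492 and 1968, with 3282 higher with limma-voom, 3787 and 3345 at 0.05, and 1577 to 1951 and 1214 to 1455 with 1 library left out. Member genes were 1 and 1, with 3 lower with limma-voom or at 0.05, 0 higher without a filter, and 1 and 0 with 1 library left out. List genes were 51 and 9, with 15 higher with limma-voom, 18 higher at 0.05, and 35 to 48 and 5 to 7 with 1 library left out.

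With the replicate number as a block, calls were 31 and 60 of all genes, 0 and 0 members and 1 and 1 list genes in siIGF2BP1 against siC, 244 and 257, 0 and 0 and 1 and 11 in siSRF against siC, and 1203 and 872, 0 and 0 and 30 and 4 in siIGF2BP1 against siSRF. The deviations of same-numbered libraries correlated between -0.0438 and 0.0186, and the labels do not say whether such libraries shared a culture or a day. The block gave ELAVL1, KHSRP and TIA1 a limma adjusted p of 0.0331, 0.0307 and 0.0566 in siIGF2BP1 against siC. In siIGF2BP1 against siSRF it gave KHSRP and TIA1 a limma adjusted p of 0.0138 and 0.0335.

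The main values of TIA1 in siSRF against siC (0.16) and of ZFP36 between the knockdowns (-0.20) turned sign, as did values closer to 0. Against siC in siIGF2BP1, ZFP36 was -0.014 with limma-voom and -0.10 to 0.25 with 1 library left out, and PUM2 was -0.055 with GC and length trends removed and -0.027 to 0.081 with 1 library left out. Against siC in siSRF, HNRNPD was -0.10 to 0.075 with 1 library left out, KHSRP 0.11, TIA1 -0.093 and PUM2 -0.14 with GC and length trends removed, and PUM2 -0.0078 with median-ratio rescaling and -0.024 to 0.060 with 1 library left out. Between the knockdowns, ZFP36 was -0.57 to 0.027 and PUM2 -0.045 to 0.053 with 1 library left out, ZFP36L1 was 0.016 and PUM2 0.048 with median-ratio rescaling, and PUM2 was 0.084 with GC and length trends removed. The levels of the members in siC moved by less than their SD under rescaling.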
